A study of Mus musculus with 12 samples.

Results

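The matrix metalloproteinases (MMPs), the ADAMTS proteinases and their inhibitors, the TIMPs, were examined in E0771 mouse mammary tumors after cyclophosphamide (CPA). Members were chosen by gene symbol alone, which gave 23 Mmp, 19 Adamts and 4 Timp genes, 46 of the 24197 genes in the table. Tumors had been grown from E0771 cells, a mouse mammary carcinoma line, placed in the fourth mammary fat pad of 7-week-old female C57/BL6N mice, and CPA, an alkylating drug that liver enzymes activate, was injected intraperitoneally at 130 mg/kg, the dose in the labels of these samples. The CPA groups were tumors taken 1, 2, 3 or 6 days after a single injection on day 0, and tumors taken on day 12 after injections on days 0 and 6. The vehicle group received PBS. Mice were 9 to 10 weeks old in the day 1, day 2, day 3 and vehicle groups, 11 weeks old in the day 6 group and 12 weeks old in the day 12 group, so age rose with the later days and cannot be told apart from them. Every group had 2 libraries of polyadenylated RNA, each from a pool of tumors, 12 libraries in all.

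MMPs are zinc-dependent endopeptidases that are made as inactive precursors and together cut collagens, gelatin, elastin, proteoglycans and many cell surface proteins. ADAMTS enzymes are secreted relatives with thrombospondin repeats, and different members trim procollagens, aggrecan and versican, cartilage oligomeric matrix protein or von Willebrand factor. TIMPs bind the active site of these enzymes and block it, and in mammary tumors many of the genes are made by stromal and immune cells as well as by carcinoma cells.

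Levels are in FPKM, read fragments per kilobase of gene, scaled to library size, so genes can be set side by side. The deposited table held the mean of both libraries of a group, and the values of the separate libraries were recovered from its digits for all 46 members. Below, pairs of values are given with the deeper library of the group first. Whether the deeper library was pool 1 or pool 2 is not known, and spread between libraries is spread between pools of tumors. The library totals, the numbers by which the FPKM values had been divided, were between 18.7 and 46.4 (in units of 1000000), the lowest being the shallower day 12 library. The recovered counts summed to between 43.9% and 46.3% of these totals. All totals were above the average depth in paired-end reads that the study's methods give for tumor libraries. What the totals count is not known. A day 1 pool has CPA in its title and vehicle in its treatment entry. Its title was followed. Hbb-b1, a globin of red cells, was at 4.75 and 9.56 FPKM in the day 1 libraries, against 40.1 and 48.9 FPKM in the vehicle libraries. Neither day 1 library was near the vehicle libraries in this gene. Of the carcinoma and epithelial markers, Krt8 was abundant, at 107 and 143 FPKM in vehicle tumors, whereas Epcam was at 0.160 and 0.218 FPKM and Krt18 at 0.378 and 0.658 FPKM.

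Members were compared with vehicle in 2 ways. In the first, a member was counted as higher or lower where the ratio of the group means, each with 1 FPKM added, passed 2-fold; this has no test. In the second, limma was run on the recovered counts of 13560 genes with a mean of at least 10 counts, 34 members among them, with Benjamini-Hochberg adjustment over all 13560 and a threshold of 0.05. The words rose and fell are used below only of members that passed that test, and limma differences are in log2 units with their standard errors. The fit takes 1 spread per gene over all 6 groups, which may be too small for day 12, whose libraries were the furthest apart. In bulk tumor RNA, fewer cells of a type and less RNA per cell cannot be told apart.

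A pair of genes made up most of the family's RNA in vehicle tumors. Timp2, which inhibits MMPs and also helps Mmp14 to activate the Mmp2 precursor, was at 103 and 99.5 FPKM. Mmp14, a membrane-anchored collagenase, was at 84.5 and 86.4 FPKM. Timp1, a soluble inhibitor, followed at 22.3 and 27.4 FPKM, and every other member had a vehicle mean of at most 8.89 FPKM, the value of Mmp13. At the other end, 20 members stayed below 1 FPKM in every group, the highest of them Mmp15, a membrane-type MMP, at a day 12 mean of 0.757 FPKM. Of these, 12 members had too few counts to be tested, namely Mmp1a, Mmp1b, Mmp7, Mmp16, Mmp17, Mmp20, Mmp21, Mmp24, Adamts16, Adamts17, Adamts18 and Adamts19. Their counts summed over all 12 libraries were between 0 for Mmp20, the enamel proteinase, and 47 for Mmp24. Mmp7, the matrilysin of secretory epithelia, had 1 count in all.

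Few members passed either comparison in the first 3 days after CPA, and many did by day 12. With 1 FPKM added, the 20 members below 1 FPKM in every group could not pass 2-fold. A member with a vehicle mean of at most 1 FPKM could not be counted as lower. Adamts8, at 0.273 FPKM on day 12 against 1.43 FPKM in vehicle, was not counted as lower by this rule. On day 1 and on day 2, 0 of 46 members passed 2-fold in either direction. Over all genes, 0.0455% were past 2-fold higher and 0.0496% past 2-fold lower on day 1, and on day 2 the shares were 0.107% higher and 0.107% lower. On day 3, 1 of 46 members was past 2-fold higher, Mmp9, against 0.256% of all genes, and 0 were past 2-fold lower, against 0.128%. On day 6, 1 of 46 members, or 2.17%, was past 2-fold higher, Mmp12, near the 1.77% of all genes, and 0 were lower, against 0.0909%. On day 12, 15 of 46 members, or 32.6%, were past 2-fold higher, against 5.73% of all genes, and 2 members, Adamts7 and Mmp11, were past 2-fold lower, against 2.04%. Leaving out the deeper vehicle library put 2 members past 2-fold higher on day 2, while 3 were on day 3 and 2 on day 6, leaving out the shallower day 6 library gave 3 on day 6, and leaving out the shallower day 12 library left 1 past 2-fold lower on day 12. Shares of all genes are not given for these counts, which are not read as results about the members. The 15 members on day 12 were Mmp2, Mmp3, Mmp8, Mmp9, Mmp10, Mmp12, Mmp13, Mmp23, Mmp27, Adamts2, Adamts5, Adamts15, Timp1, Timp3 and Timp4.

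With limma, 0 of 34 members were called in either direction on days 1, 2 and 3. Over all tested genes, the shares called higher were 0.0% on day 1, 0.236% on day 2 and 0.627% on day 3, and those called lower were 0.0%, 0.0737% and 0.236%. At an unadjusted p under 0.05, 1 member (2.94%) passed on day 1, 4 (11.8%) on day 2 and 5 (14.7%) on day 3, near the 4.93%, 9.12% and 11.5% of all tested genes that did. A limma fit to log2(FPKM + 1) in place of counts also called 0 members on these days. On day 6, 3 members (8.82%) rose, against 6.68% of all tested genes, and 1 (2.94%) fell, against 1.47%. The share that rose was near that of all tested genes. At an unadjusted p under 0.05, 14 (41.2%) passed on day 6, against 21.3%. On day 12, 20 of 34 members, or 58.8%, rose, against 24.6% of all tested genes, and 5, or 14.7%, fell, against 23.1%. The same 25 had an unadjusted p under 0.05, against 55.6% of all tested genes. Among the 20 that rose, Timp4 had a mean of under 10 counts without the day 12 libraries and passed the count filter only through them. The number of members called on days 6 and 12 changed when 1 vehicle, day 6 or day 12 library was left out. The number called over all tested genes changed as well. Such a fit leaves 1 library in a group, so these counts are not read as results about the family. With library totals in place of median-of-ratios scaling, 92.6% of all genes called on day 6 were higher, against 81.9% as reported, and the median of all genes on day 12 was -0.16. The median log2 difference of the 34 members was 0.04, 0.14, -0.11, 0.23 and 1.26 on days 1, 2, 3, 6 and 12, beside 0.01, -0.01, -0.02, -0.04 and -0.05 over all tested genes. The plot of log2 differences on days 6 and 12 shows how much wider the family's differences were on day 12.

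**Figure D1:**
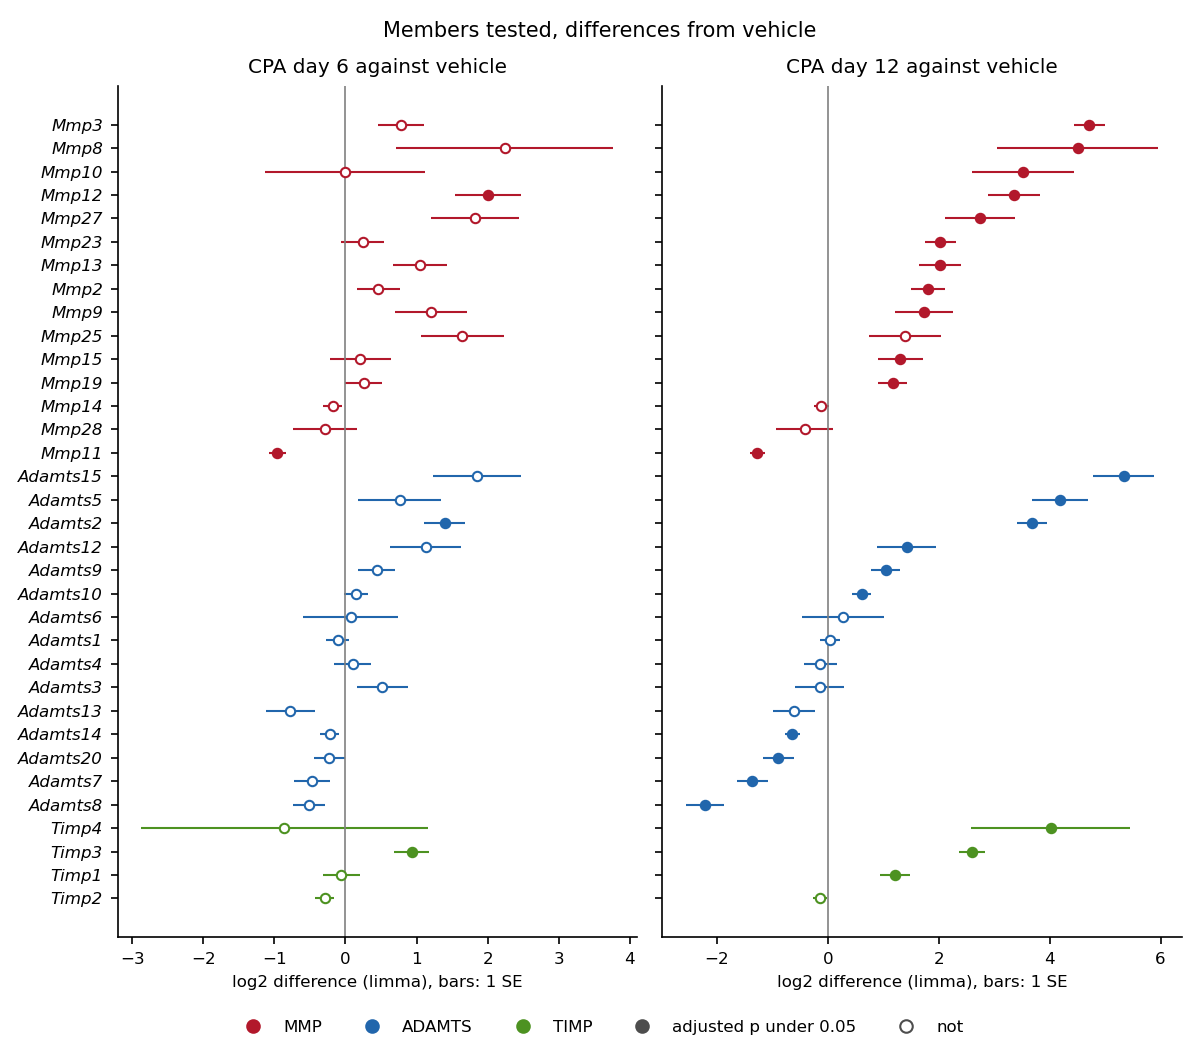
Log2 difference from vehicle (limma, x axis, bars 1 SE) of the 34 tested members (rows), on CPA day 6 in the left panel and day 12 in the right panel, with members called by limma as filled points and the rest as open points. On day 6, 4 members were called, and on day 12 the called members reached from -2.21 for Adamts8 to 5.34 for Adamts15.

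No member was called on the early days, and Mmp9 and Mmp11 are given as time courses that had an unadjusted p under 0.05 on days 2 and 3. Mmp9, the gelatinase that neutrophils and macrophages store or secrete, had 1.42 and 1.05 FPKM in vehicle tumors, 2.04 and 1.58 FPKM on day 1, 3.22 and 3.05 FPKM on day 2, 3.50 and 4.23 FPKM on day 3, 3.44 and 2.71 FPKM on day 6, and 6.87 and 1.56 FPKM on day 12. Its libraries lay above both vehicle libraries on every CPA day, but the adjusted p was under 0.05 only on day 12. Mmp11, stromelysin 3 of tumor stroma, had 8.33 and 7.55 FPKM in vehicle tumors, 7.42 and 7.58 FPKM on day 1, 6.54 and 5.42 FPKM on day 2, 5.54 and 5.55 FPKM on day 3, 4.21 and 4.68 FPKM on day 6, and 3.17 and 2.85 FPKM on day 12. From day 2 on, each of its CPA libraries was below both vehicle libraries. The difference on day 3 was -0.57 ± 0.12 with an adjusted p of 0.0580 (limma), and Mmp11 fell by 0.96 ± 0.12 on day 6 (adjusted p = 0.00185) and by 1.27 ± 0.14 on day 12 (adjusted p = 7.9e-05, limma). Mmp11 was the member that fell on both late days.

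On day 6, after a single CPA injection, the members that rose were a macrophage enzyme, a collagen-processing enzyme and an inhibitor. Mmp12, the macrophage metalloelastase, was at 20.9 and 16.7 FPKM on day 6, against 7.39 and 2.45 FPKM in vehicle tumors. The groups did not overlap, although the vehicle libraries themselves were more than 2-fold apart, and Mmp12 rose by 2.01 ± 0.47 (limma, adjusted p = 0.0254). Adamts2, which removes the amino-terminal propeptide of fibrillar procollagens, was at 0.749 and 0.775 FPKM on day 6, against 0.235 and 0.304 FPKM in vehicle tumors, and rose by 1.39 ± 0.28 (limma, adjusted p = 0.0131). Timp3, the TIMP that stays bound to the matrix, was at 2.77 and 2.62 FPKM on day 6, against 1.31 and 1.28 FPKM in vehicle tumors, and rose by 0.93 ± 0.25 (limma, adjusted p = 0.0444). For both genes each day 6 library was above each vehicle library. Each of these 3 calls was lost in some of the fits that left out 1 library. Without 1 vehicle or day 6 library the log2 difference lay between 1.16 and 1.61 for Adamts2 and between 0.87 and 0.99 for Timp3, and for Mmp12 it was 1.25 without the shallower and 2.77 without the deeper vehicle library. The adjusted p (limma) reached 0.225 for Mmp12 without the shallower vehicle library (0.160 and 0.0839 without either day 6 library), 0.100 for Adamts2 without the deeper vehicle library (also lost without the other vehicle and either day 6 library) and 0.223 for Timp3 without the shallower vehicle library (lost under 12 of 16 alternatives). Only the fall of Mmp11 kept its call under every alternative tried. The summed FPKM of 8 macrophage and monocyte markers was 866 and 698 on day 6, against 274 and 223 in vehicle tumors. Of these 8 markers, 7 rose, against 6.68% of all tested genes. Their part in the day 6 results was not tested.

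Of the 11 Mmp genes that rose on day 12, 6 lie in 1 gene cluster. In mm9, the build of the deposited coordinates, 10 of the 23 Mmp genes lie within 426.9 kb on chromosome 9, at chr9:7272513-7699416, in the order Mmp13, Mmp12, Mmp1b, Mmp3, Mmp1a, Mmp10, Mmp8, Mmp27, Mmp20 and Mmp7 along the deposited coordinates. Promoter sequences were taken from RefSeq on the GRCm38.p6 build, 250 bases before to 50 bases after the annotated start, and 32 of the 46 members matched at least 1 promoter. The 14 members without a promoter, all outside the cluster, could not be searched. They included Mmp2, Mmp9, Mmp19, Adamts5, Adamts10 and Adamts15, which rose on day 12, and Adamts7 and Adamts8, which fell. The letters TGANTCA, with N for any base, read the same on both strands, and their forms TGACTCA and TGAGTCA are bound by AP-1 factors. They were found in a promoter of 8 of the 10 cluster genes and in 0 of the 22 other members with a promoter. Of all 27025 genes in the RefSeq table, 8.97% held these letters in any promoter, as did 7.81% of the 32851 promoters. Of the 2 promoters listed for Mmp12 and the 2 listed for Mmp7, 1 each had the match. Mmp8 and Mmp27, which rose on day 12, had no match in this window. The match of Mmp20 was TGAATCA, and those of the other cluster genes were TGACTCA or TGAGTCA. The 4 promoters below are those of the cluster members that rose on day 12 and had a match. Their matches, in capitals, lie between 35 bases (Mmp13) and 63 bases (Mmp10) before the start of the gene. Each stretch runs from 120 bases before to 30 bases after it. Mmp1a, Mmp1b, Mmp7 and Mmp20 also had a match, but only 27, 13, 1 and 0 counts over all 12 libraries, too few to be tested. The matches describe letters and not binding.
Mmp13 (chr9:7272394-7272543, plus strand): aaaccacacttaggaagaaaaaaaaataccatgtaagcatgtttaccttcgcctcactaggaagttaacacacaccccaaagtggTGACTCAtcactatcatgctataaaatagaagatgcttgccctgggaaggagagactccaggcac
Mmp12 (chr9:7347254-7347403, plus strand): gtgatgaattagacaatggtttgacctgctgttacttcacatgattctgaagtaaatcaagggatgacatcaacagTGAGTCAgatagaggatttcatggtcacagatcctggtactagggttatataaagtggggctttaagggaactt
Mmp3 (chr9:7445702-7445851, plus strand): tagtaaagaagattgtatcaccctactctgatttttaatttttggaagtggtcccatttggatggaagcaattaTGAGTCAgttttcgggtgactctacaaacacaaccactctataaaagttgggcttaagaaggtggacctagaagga
Mmp10 (chr9:7502222-7502371, plus strand): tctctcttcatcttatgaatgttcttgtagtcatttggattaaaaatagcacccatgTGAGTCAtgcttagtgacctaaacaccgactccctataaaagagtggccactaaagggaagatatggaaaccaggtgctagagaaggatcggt

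All 6 tested genes of the cluster rose on day 12, with log2 differences of 2.02 to 4.71, and all 6 were past 2-fold. On day 6, 1 of the 6, Mmp12, rose. Of the other 13 Mmp genes, 9 were tested on day 12, of which 5 rose and 1 fell, with log2 differences of -1.27 to 2.02. Over all tested genes, 24.6% rose and 23.1% fell on day 12. Inside against outside the cluster was not tested. The cluster's summed level was 116 FPKM as a day 12 mean, against 15.8 FPKM in vehicle, with libraries at 161 and 72.1 FPKM on day 12, against 21.9 and 9.69 FPKM in vehicle.

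Among the stromelysins, which cut proteoglycans, laminin and fibronectin and can activate other MMPs, Mmp3 had the largest limma log2 difference of the Mmp genes on day 12. By the ratio of mean FPKM Mmp8 was ahead, at 32.6, beside 24.6 for Mmp3, and by FPKM gained Mmp12 was. Mmp3 had 1.26 and 1.15 FPKM in vehicle tumors, 1.59 and 1.29 FPKM on day 1, 0.972 and 0.711 FPKM on day 2, 1.12 and 1.42 FPKM on day 3, 1.74 and 2.90 FPKM on day 6, and 35.4 and 23.7 FPKM on day 12. Both day 12 libraries were far above all others, and Mmp3 rose by 4.71 ± 0.28 (limma, adjusted p = 5.66e-06). Mmp10, stromelysin 2, had 3.76 and 0.554 FPKM on day 12, against 0.292 and 0.0907 FPKM in vehicle tumors. Its groups did not overlap, but the day 12 libraries were far apart, and Mmp10 rose by 3.52 ± 0.92 (limma, adjusted p = 0.0104), with an adjusted p of 0.0638 once the shallower vehicle library was left out. Its log2 difference was 1.87 without the deeper and 4.54 without the shallower day 12 library, and 4.31 without the deeper and 2.77 without the shallower vehicle library. Its group means on days 1, 2, 3 and 6 were 0.204, 0.135, 0.135 and 0.181 FPKM, beside 0.191 FPKM in vehicle.

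The collagenases, which cut the triple helix of fibrillar collagens, were represented mainly by Mmp13. Mmp13 had 12.2 and 5.54 FPKM in vehicle tumors, 9.83 and 7.50 FPKM on day 1, 13.6 and 13.2 FPKM on day 2, 18.5 and 14.2 FPKM on day 3, 19.6 and 17.7 FPKM on day 6, and 46.8 and 20.2 FPKM on day 12. From day 2 its libraries lay above both vehicle libraries, and on day 12 it rose by 2.02 ± 0.38 (limma, adjusted p = 0.00202), or by 1.43 without the deeper day 12 library. Mmp8, the neutrophil collagenase, had 6.63 and 0.457 FPKM on day 12, against 0.117 and 0.101 FPKM in vehicle tumors, and its group means on days 1, 2, 3 and 6 were 0.258, 0.156, 0.381 and 0.616 FPKM. The day 12 rise thus rested mostly on the deeper library. Mmp8 rose by 4.5 ± 1.46 (limma, adjusted p = 0.0272), and the log2 difference was 2.19 without the deeper day 12 library (adjusted p = 0.0387) and 5.96 without the shallower. Leaving out the deeper vehicle library gave an adjusted p of 0.128, and leaving out the shallower gave 0.111. The summed neutrophil markers of the day 12 libraries, 569 and 30.1 FPKM, stood in the same order as Mmp8, and their part in its rise was not tested.

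The remaining tested cluster genes were Mmp12 and Mmp27. Mmp12 had 7.39 and 2.45 FPKM in vehicle tumors, 6.86 and 4.28 FPKM on day 1, 6.36 and 5.07 FPKM on day 2, 9.29 and 9.45 FPKM on day 3, 20.9 and 16.7 FPKM on day 6, and 63.5 and 26.1 FPKM on day 12. It was above vehicle in both libraries from day 3 on and rose by 3.35 ± 0.47 on day 12 (limma, adjusted p = 0.000359). Its log2 difference lay between 2.59 and 4.11 when a day 12 or vehicle library was left out, the lowest without the shallower and the highest without the deeper vehicle library, with 2.75 and 3.98 without the deeper and the shallower day 12 library. Mmp27, a little studied member of the stromelysin branch, had 4.52 and 1.1 FPKM on day 12 and 1.9 and 1.38 FPKM on day 6, against 0.532 and 0.325 FPKM in vehicle tumors, while its means on days 1, 2 and 3 were 0.464, 0.281 and 0.472 FPKM. Each library of the late days was above vehicle, and Mmp27 rose by 2.74 ± 0.63 on day 12 (limma, adjusted p = 0.00559). The log2 difference was 1.53 without the deeper and 3.50 without the shallower day 12 library. The plot of Mmp levels by library shows these time courses.

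**Figure D2:**
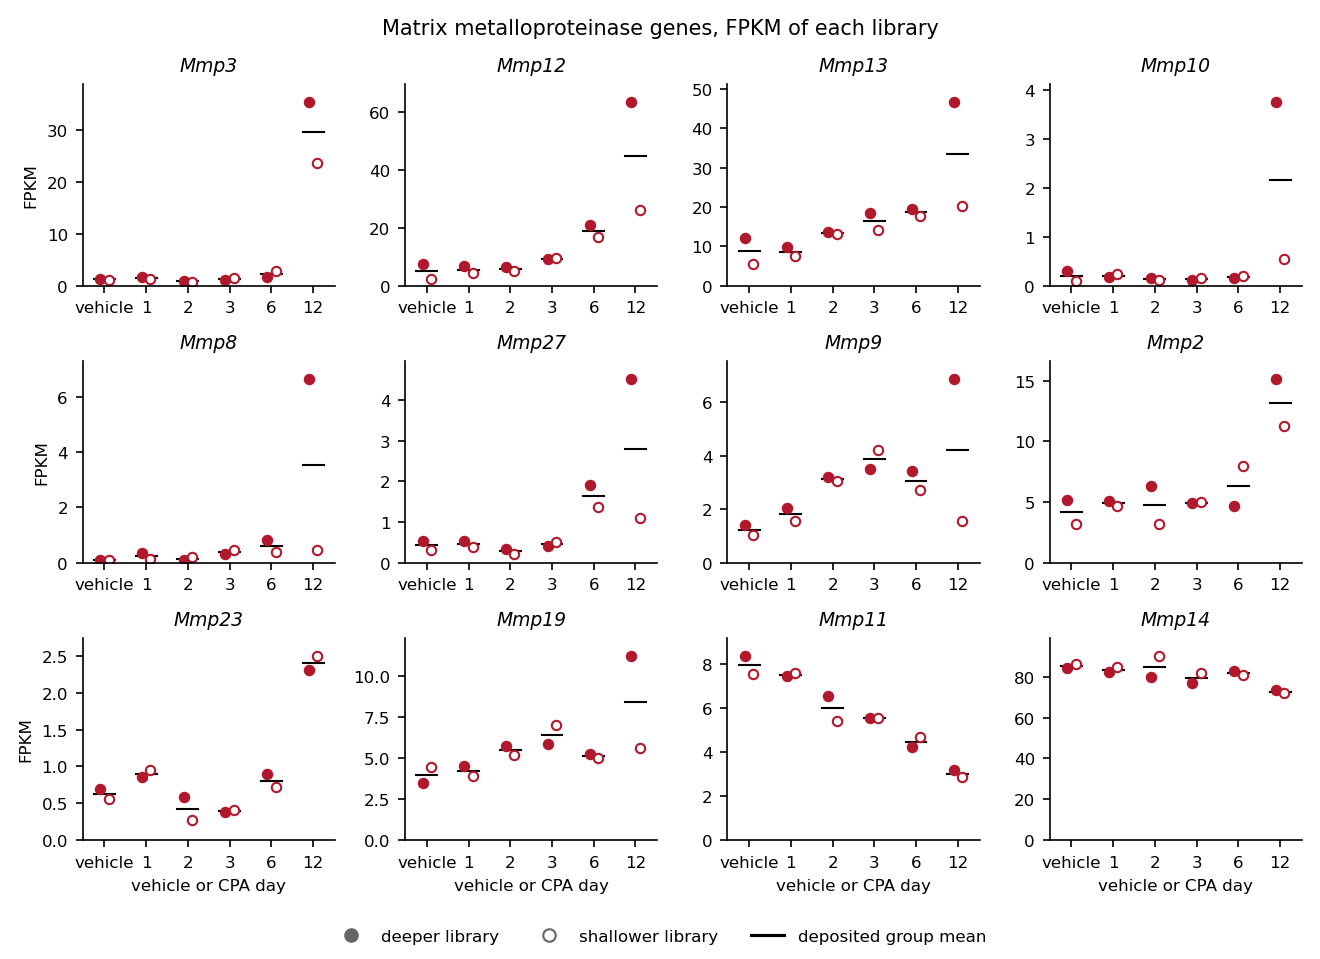
FPKM (y axis, linear from 0) of the Mmp genes that reached 1 FPKM, in vehicle tumors and on CPA days 1, 2, 3, 6 and 12 (x axis), with the deeper library as filled points, the shallower as open points and the deposited group mean as a line. Mmp3 lay between 0.711 and 2.90 FPKM in the 10 libraries other than those of day 12, and at 35.4 and 23.7 FPKM on day 12, whereas Mmp14 stayed between 71.9 and 90.0 FPKM in all 12 libraries.

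The gelatinases, which degrade denatured and basement membrane collagens, both rose on day 12. Mmp2, made chiefly by stromal cells, had 5.19 and 3.20 FPKM in vehicle tumors, 5.12 and 4.69 FPKM on day 1, 6.35 and 3.24 FPKM on day 2, 4.94 and 4.98 FPKM on day 3, 4.69 and 7.97 FPKM on day 6, and 15.1 and 11.2 FPKM on day 12. Only on day 12 were both of its libraries clear of the other groups, and it rose by 1.80 ± 0.30 (limma, adjusted p = 0.000976). Mmp9, with 6.87 and 1.56 FPKM on day 12, against 1.42 and 1.05 FPKM in vehicle tumors, rose by 1.73 ± 0.53 (limma, adjusted p = 0.0209), but the log2 difference was 0.51 without the deeper day 12 library (adjusted p = 0.224) and 2.58 without the shallower. The adjusted p was 0.0692 without the deeper and 0.0917 without the shallower vehicle library. Its shallower day 12 library was close to the vehicle libraries.

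The membrane-type MMPs were led by Mmp14, which was not called on any day. Mmp14 had 84.5 and 86.4 FPKM in vehicle tumors, 82.4 and 84.6 FPKM on day 1, 80 and 90.0 FPKM on day 2, 76.8 and 81.7 FPKM on day 3, 82.7 and 81 FPKM on day 6, and 73.5 and 71.9 FPKM on day 12. Its day 12 libraries were the lowest, with a log2 difference of -0.12 ± 0.13 (limma, adjusted p = 0.487). Mmp15 had 0.465 and 1.05 FPKM on day 12, against 0.247 and 0.310 FPKM in vehicle tumors, and rose by 1.31 ± 0.41 (limma, adjusted p = 0.0246). The difference was 2.07 without the deeper day 12 library. The call was lost without the shallower day 12 library (0.84, adjusted p = 0.0958) and without the deeper (adjusted p = 0.132) or the shallower (adjusted p = 0.0578) vehicle library. Mmp25, a leukocyte membrane-type MMP, had 0.481 and 0.694 FPKM on day 6 and 0.531 and 0.269 FPKM on day 12, against 0.163 and 0.173 FPKM in vehicle tumors. Its groups did not overlap on either day, but it was not called (day 12, 1.39 ± 0.65, limma adjusted p = 0.101).

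Of the other MMPs, Mmp19 and Mmp23 rose on day 12. Mmp19, a basement membrane-degrading enzyme, had 3.50 and 4.46 FPKM in vehicle tumors, 4.51 and 3.91 FPKM on day 1, 5.75 and 5.19 FPKM on day 2, 5.83 and 7.01 FPKM on day 3, 5.24 and 4.99 FPKM on day 6, and 11.2 and 5.6 FPKM on day 12. Every library from day 2 on was above vehicle, and the day 12 difference was 1.17 ± 0.26 (limma, adjusted p = 0.00527). Tmem198b, whose listed location overlaps Mmp19, had group means of 4.27 to 8.76 FPKM and was lowest on day 12. The libraries kept strand, but whether strand was used in counting is not stated in the sources read here. Mmp23, an MMP with an unusual cysteine-rich domain in place of the hemopexin domain, had 2.30 and 2.50 FPKM on day 12, against 0.691 and 0.564 FPKM in vehicle tumors, and means of 0.901, 0.426, 0.399 and 0.808 FPKM on days 1, 2, 3 and 6. Its day 12 libraries were close together and above all others, and it rose by 2.02 ± 0.28 (limma, adjusted p = 0.000329).

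The ADAMTS genes moved in both directions on day 12, with 6 of 15 tested members, or 40%, rising, against 24.6% of all tested genes, and 4, or 26.7%, falling, against 23.1%. Adamts2 had 0.235 and 0.304 FPKM in vehicle tumors, 0.370 and 0.321 FPKM on day 1, 0.394 and 0.187 FPKM on day 2, 0.291 and 0.233 FPKM on day 3, 0.749 and 0.775 FPKM on day 6, and 2.83 and 3.66 FPKM on day 12. Both late days lay above all earlier libraries, and Adamts2 rose by 3.69 ± 0.27 on day 12 (limma, adjusted p = 1e-05). Adamts14, another procollagen N-proteinase, went the other way on day 12, with 4.22 and 4.99 FPKM, against 7.47 and 7.86 FPKM in vehicle tumors, and fell by 0.64 ± 0.14 (limma, adjusted p = 0.00417). Its means on days 1, 2, 3 and 6 were 7.55, 6.98, 6.82 and 7.14 FPKM. The summed level of the 3 procollagen N-proteinases, Adamts2, Adamts3 and Adamts14, was 7.93 FPKM as a day 12 mean and 8.03 FPKM in vehicle.

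Of the 7 ADAMTS genes that cleave proteoglycans such as aggrecan and versican, 3 rose and 2 fell on day 12. Over all tested genes the shares were 24.6% and 23.1%. Adamts15 had 1.19 and 1.5 FPKM on day 12, against 0.0223 and 0.0493 FPKM in vehicle tumors, with means of 0.0525, 0.0462, 0.0375 and 0.138 FPKM on days 1, 2, 3 and 6. Adamts5, the main aggrecanase of mouse cartilage, had 1.41 and 3.1 FPKM on day 12, against 0.0815 and 0.169 FPKM in vehicle tumors, with means of 0.0952, 0.131, 0.101 and 0.217 FPKM on days 1, 2, 3 and 6. In both genes the day 12 libraries stood far above every other library. Adamts15 rose by 5.34 ± 0.55 (adjusted p = 5.7e-05) and Adamts5 by 4.19 ± 0.50 (adjusted p = 0.000143, limma). Adamts15 was at 4.74 without the deeper vehicle library, and Adamts5 at 4.87 without the deeper day 12 library. Adamts9 rose by 1.04 ± 0.27 with libraries at 0.571 and 0.531 FPKM on day 12, against 0.369 and 0.227 FPKM in vehicle tumors (limma, adjusted p = 0.00936; 0.0623 without the shallower vehicle library). Adamts8 had 0.339 and 0.206 FPKM on day 12, against 1.58 and 1.29 FPKM in vehicle tumors, and means of 1.38, 1.35, 1.31 and 1.09 FPKM on days 1, 2, 3 and 6. The day 12 libraries were the lowest of the 12, and it fell by 2.21 ± 0.34 (limma, adjusted p = 0.000665). Adamts20 had 0.0862 and 0.0913 FPKM on day 12, against 0.178 and 0.182 FPKM in vehicle tumors, and fell by 0.89 ± 0.28 (limma, adjusted p = 0.0240), a call lost without the deeper day 12 library (adjusted p = 0.116) and without either vehicle library (0.0523 and 0.0670).

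Adamts1 and Adamts4, the remaining proteoglycan-cleaving members, were not called on any day. Adamts1 had group means of 1.80, 1.51, 1.30, 1.54, 1.80 and 1.70 FPKM in vehicle and on days 1, 2, 3, 6 and 12. Adamts4 had means of 3.30, 4.5, 3.97, 3.83, 3.83 and 2.77 FPKM over the same groups, with 3.73 and 1.80 FPKM in the day 12 libraries, so its day 12 pair spanned the vehicle pair.

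Adamts7, which cleaves cartilage oligomeric matrix protein, had 7.88 and 7.79 FPKM in vehicle tumors, 8.97 and 7.33 FPKM on day 1, 12.2 and 8.09 FPKM on day 2, 9.24 and 11.4 FPKM on day 3, 5.34 and 7.02 FPKM on day 6, and 3.79 and 1.87 FPKM on day 12. It was above vehicle on days 2 and 3 and below it on days 6 and 12, and was called on day 12 alone, when it fell by 1.36 ± 0.28 (limma, adjusted p = 0.00314). Libraries all above vehicle on one day and all below it on another were found in 7 of the 34 tested members, or 20.6%, against 33.9% of all tested genes. Adamts12, its close relative, had 0.184 and 0.188 FPKM on day 12, against 0.134 and 0.0396 FPKM in vehicle tumors, and rose by 1.42 ± 0.53 on day 12 (limma, adjusted p = 0.0488), a call lost under 12 of 15 alternatives, with a difference of 0.62 and an adjusted p of 0.316 without the shallower vehicle library and a difference of 2.26 without the deeper. Adamts13, the von Willebrand factor-cleaving enzyme, had group means of 1.37, 1.21, 1.99, 1.76, 0.868 and 0.844 FPKM in vehicle and on days 1, 2, 3, 6 and 12 and was not called on any day. Adamts10, which binds fibrillin microfibrils, had means of 2.82, 3.93, 3.79, 3.67, 3.38 and 4.06 FPKM over these groups and rose by 0.61 ± 0.17 on day 12 (limma, adjusted p = 0.0161). The adjusted p was 0.0717 without the shallower day 12 library and 0.0741 without the shallower vehicle library. All 10 CPA libraries of Adamts10 were above both vehicle libraries.

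The inhibitors differed among themselves. Timp2 had 103 and 99.5 FPKM in vehicle tumors, 98.4 and 96.6 FPKM on day 1, 111 and 114 FPKM on day 2, 110 and 113 FPKM on day 3, 86.8 and 92.9 FPKM on day 6, and 80 and 88.1 FPKM on day 12. It was above vehicle on days 2 and 3 and below it on days 1, 6 and 12, by small amounts, and was not called on any day (day 12, -0.15 ± 0.13, limma adjusted p = 0.351). Timp1 had 22.3 and 27.4 FPKM in vehicle tumors, 22.5 and 21.6 FPKM on day 1, 25.1 and 42.8 FPKM on day 2, 36.9 and 35.3 FPKM on day 3, 25.9 and 25.8 FPKM on day 6, and 62.5 and 43.7 FPKM on day 12. Its highest values were on day 12, when it rose by 1.21 ± 0.26 (limma, adjusted p = 0.00429), and on day 6 it lay between the vehicle libraries. Timp3 had 1.31 and 1.28 FPKM in vehicle tumors, means of 1.30, 1.36 and 1.43 FPKM on days 1, 2 and 3, 2.77 and 2.62 FPKM on day 6, and 5.97 and 9.12 FPKM on day 12. Both late days stood above all earlier libraries, and Timp3 rose by 2.60 ± 0.24 on day 12 (limma, adjusted p = 3.3e-05).

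Timp4, a TIMP of adipose tissue and heart, had 0.415 and 4.37 FPKM on day 12, against 0.0467 and 0.0793 FPKM in vehicle tumors, and group means of 0.0228, 0.0184, 0.0327 and 0.0328 FPKM on days 1, 2, 3 and 6. The rise rested mainly on the shallower day 12 library. It was 4.02 ± 1.44 (limma, adjusted p = 0.0407), with a log2 difference of 6.15 without the deeper and 2.72 without the shallower day 12 library. Leaving out the deeper vehicle library gave an adjusted p of 0.176, leaving out the shallower gave 0.136, and the call was also lost without either day 2 or either day 6 library. The summed adipocyte markers, 1039 and 9555 FPKM in the day 12 libraries, stood in the same order as Timp4, and their part in its rise was not tested. Without the day 12 libraries Timp4 had a mean of under 10 counts, so it passed the count filter only through the group where it was high. The listed locations of all 4 Timp genes overlap another gene. Syn1, which overlaps Timp1, had means of 1.15 to 2.34 FPKM, Syn2, which overlaps Timp4, at most 0.185 FPKM, Syn3, which overlaps Timp3, at most 0.00806 FPKM, and BC100451, which overlaps Timp2, at most 0.730 FPKM.

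**Figure D3:**
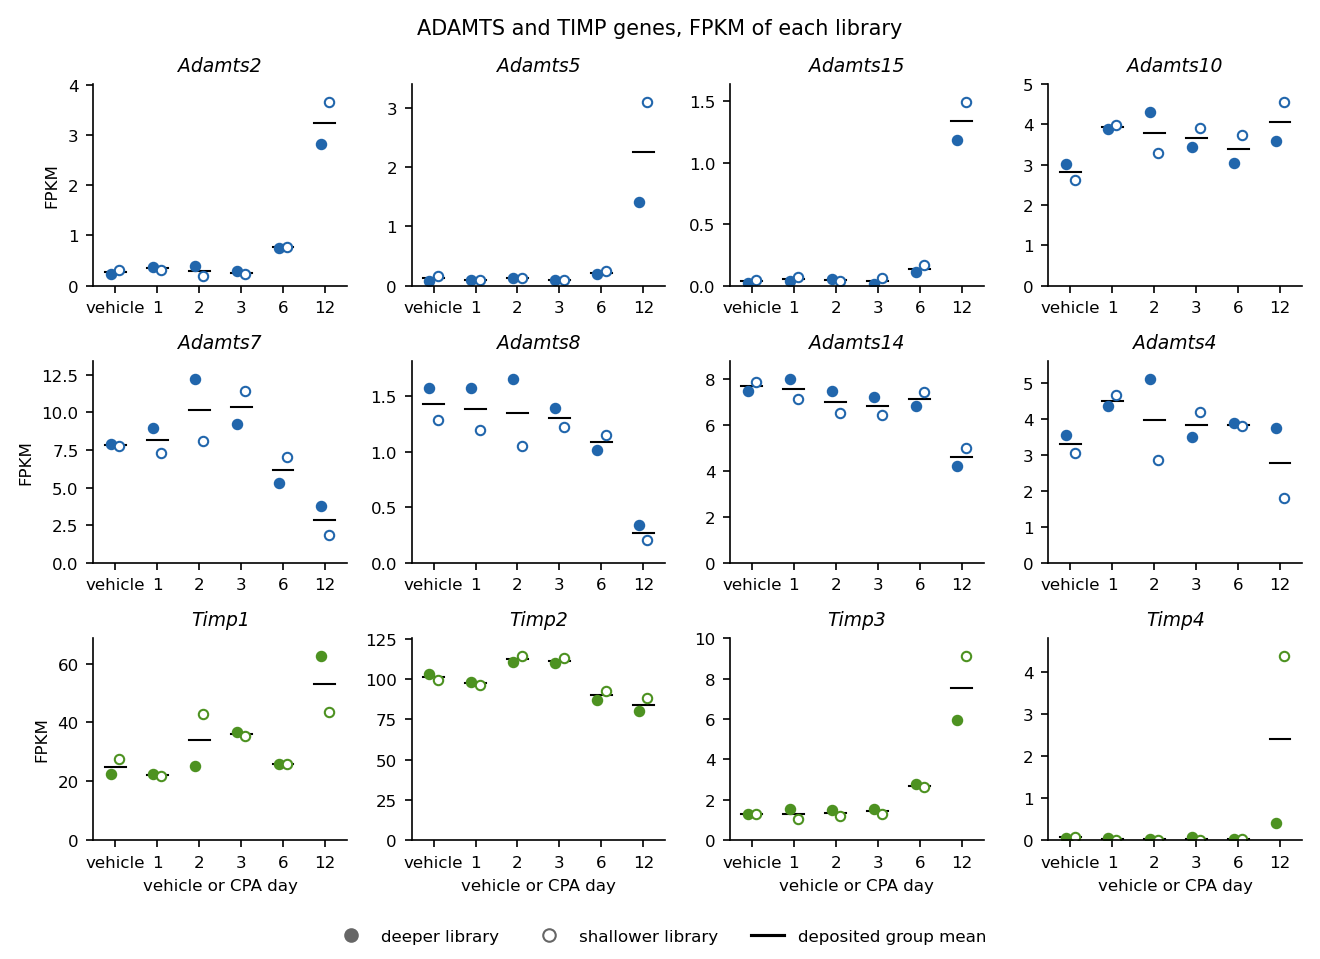
FPKM (y axis, linear from 0) of Adamts and Timp genes in vehicle tumors and on CPA days 1, 2, 3, 6 and 12 (x axis), with the deeper library as filled points, the shallower as open points and the deposited group mean as a line. Adamts2, Adamts5, Adamts15 and Timp3 were highest in both day 12 libraries, Adamts8 and Adamts14 lowest, and the Timp4 libraries of day 12 stood at 0.415 and 4.37 FPKM.

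Enzyme and inhibitor RNA were set side by side as sums of FPKM within a library. All 23 Mmp genes summed to 120 FPKM in vehicle and to 121, 126, 129, 145 and 222 FPKM on days 1, 2, 3, 6 and 12, as group means. The 4 Timp genes summed to 128, 121, 148, 149, 118 and 147 FPKM over the same groups. The MMP sum over the TIMP sum was 0.998 and 0.888 in the vehicle libraries, 1.28 and 1.18 on day 6, and 1.84 and 1.17 on day 12, so both late days lay above vehicle and the day 12 libraries were furthest apart. The 19 Adamts genes summed to 25 FPKM on day 12, against 27.4 FPKM in vehicle. These sums describe RNA, and were not tested.

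The makeup of the MMP sum also differed. Mmp14 held 32.8% of it as a day 12 mean, against 71.1% in vehicle, while Mmp12 held 20.2%, against 4.09%, Mmp13 held 15.1%, against 7.40%, and Mmp3 held 13.3%, against 1.00%. Timp2 held 57.1% of the TIMP sum on day 12, against 79.4% in vehicle. The plot of summed levels shows that the cluster sum was above both vehicle libraries from day 3 on.

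**Figure D4:**
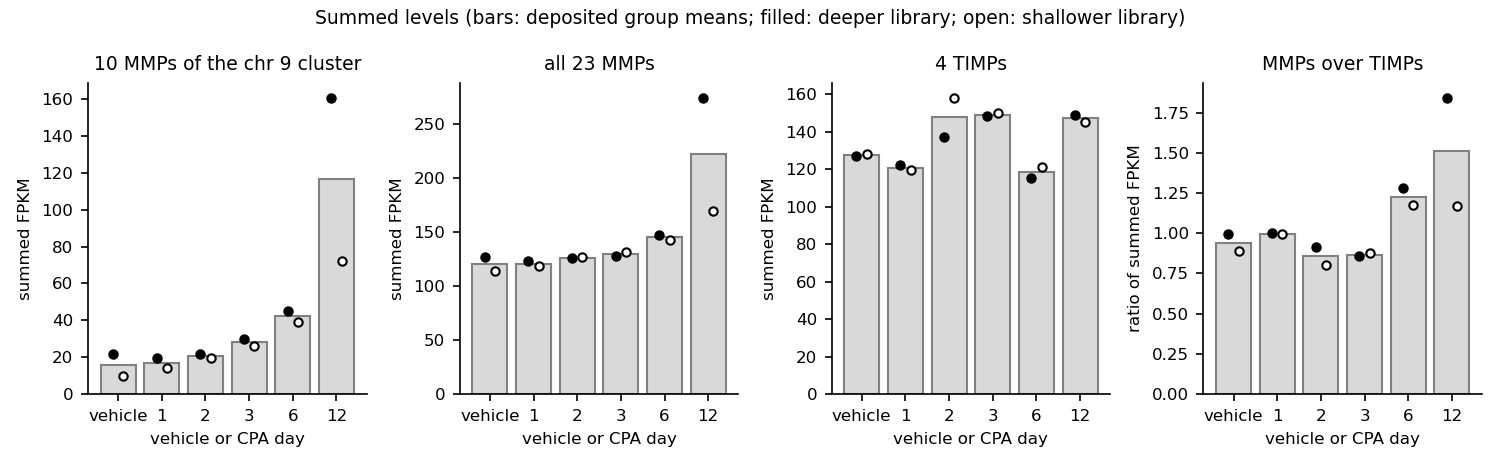
Summed FPKM (y axis) of the 10 MMPs of the chromosome 9 cluster, of all 23 MMPs and of the 4 TIMPs, and the MMP sum over the TIMP sum, in vehicle tumors and on CPA days 1, 2, 3, 6 and 12 (x axis), with bars for the group means, filled points for the deeper and open points for the shallower library. The cluster summed to 161 and 72.1 FPKM on day 12, against 21.9 and 9.69 FPKM in vehicle.

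The day 12 libraries differed from each other in many members. Of the 34 tested members, 12, or 35.3%, were more than 2-fold apart between the day 12 libraries, against 14.0% of all tested genes, and 6, or 17.6%, between the vehicle libraries, against 4.55%. The 9 that were higher in the deeper day 12 library were Mmp8, Mmp9, Mmp10, Mmp12, Mmp13, Mmp27, Adamts4, Adamts6 and Adamts7, and the 3 higher in the shallower were Timp4, Adamts5 and Mmp15. The plot of the day 12 libraries against each other shows these pairs, and 5 of the 9 genes that leaned to the deeper library belong to the chromosome 9 cluster.

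**Figure D5:**
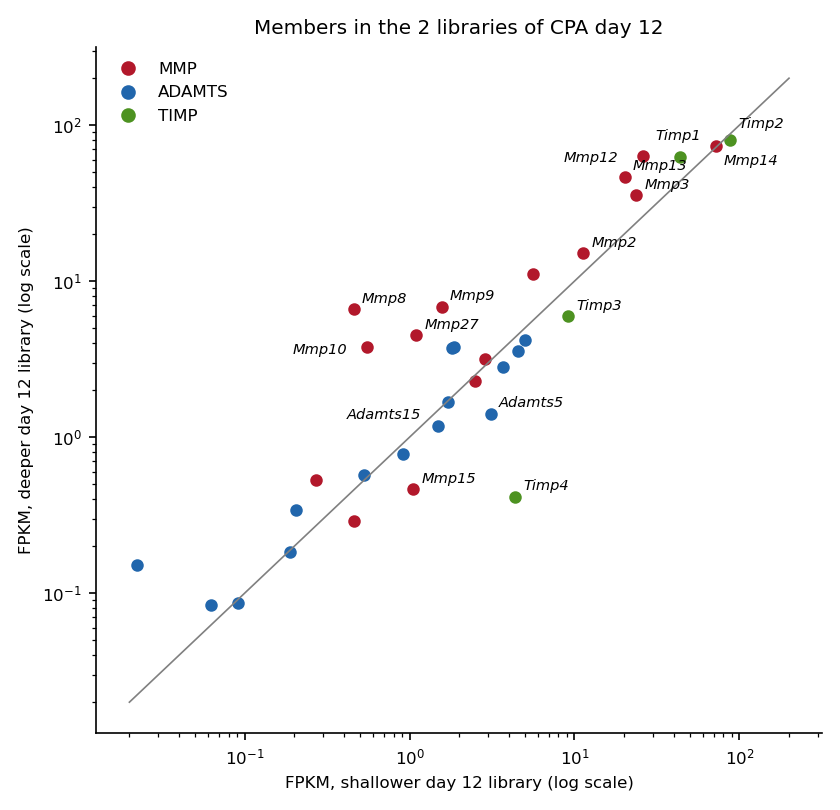
FPKM of the tested members in the deeper (y axis) and the shallower (x axis) CPA day 12 library, both on log scales, with the line of equality. Mmp8 (6.63 and 0.457 FPKM) and Mmp9 (6.87 and 1.56 FPKM) lay well above the line, and Timp4 (0.415 and 4.37 FPKM) well below it.

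Markers of other cells moved with the same libraries. Of all tested genes, 24.6% rose and 23.1% fell on day 12. Of 7 neutrophil markers matched, all rose on day 12, and they summed to 569 and 30.1 FPKM, against 2.21 and 3.35 FPKM in vehicle tumors, so the deeper library held far more. Among them Camp and Ngp were each at 0 in 7 of the 12 libraries, none of these from day 6 or day 12. All 7 adipocyte markers rose, summing to 1039 and 9555 FPKM on day 12, against 53.2 and 108 FPKM in vehicle, with the shallower library far higher. The 6 carcinoma and epithelial markers summed to 91.1 and 315 FPKM on day 12, against 108 and 146 FPKM in vehicle, and 5 rose, Krt19 standing at 9.83 and 144 FPKM on day 12, against 0.529 and 1.37 FPKM in vehicle. Krt8, the one marker of that list that was abundant in vehicle tumors, was not called, at 67.3 and 97.1 FPKM on day 12, against 107 and 143 FPKM in vehicle (-0.49 ± 0.23, limma adjusted p = 0.107). Macrophage and monocyte markers (8 of 8 rose, 1451 and 1183 FPKM, against 274 and 223 FPKM) and fibroblast markers (7 of 8 rose and 1 fell, 381 and 307 FPKM, against 77.7 and 80.7 FPKM) were high in both day 12 libraries. T and NK cell markers rose in 6 of 6, endothelial markers in 6 of 7, and pericyte and smooth muscle markers rose in 5 of 7 with 1 falling, while 0 of 5 skeletal muscle markers were called by limma. The part of these cell types in the day 12 results was not tested.

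The day 12 calls were read under alternatives of the limma fit. With 1 library left in a group, that group has no spread of its own, and the fit takes it from the other groups. A call kept without a day 12 library thus does not show that it rested on both pools. Of the 25 members called, 16 kept their call under every alternative of the limma fit and without each library in turn, namely Mmp2, Mmp3, Mmp11, Mmp12, Mmp13, Mmp19, Mmp23, Mmp27, Adamts2, Adamts5, Adamts7, Adamts8, Adamts14, Adamts15, Timp1 and Timp3. The other 9 lost it under at least 1 alternative, but none changed direction. Among the 16, Mmp23 and Adamts15 had a mean of under 50 counts and were not tested in the alternative with that minimum.

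Genes that act with the family were read from fixed lists. Of all tested genes, 24.6% rose and 23.1% fell on day 12, and 6.68% rose and 1.47% fell on day 6. Of 13 tested genes that activate MMPs or inhibit them by other means, 8 rose and 1 fell on day 12. They included Serpine2, an inhibitor of plasminogen activators and thrombin, at 11.6 and 12.4 FPKM, against 1.96 and 1.52 FPKM in vehicle, and Tfpi2, a serine proteinase inhibitor of the matrix, at 1.63 and 1.74 FPKM, against 0.263 and 0.149 FPKM. Of 12 tested matrix substrates, 7 rose and 2 fell on day 12, and those that fell were Col4a1 and Col4a2, chains of basement membrane collagen. Col1a2, a chain of collagen I that Adamts2 trims and Mmp13 cuts, was at 95.0 and 78.5 FPKM on day 12, against 6.65 and 7.65 FPKM in vehicle. Spp1, the MMP substrate osteopontin, was at 160 and 71.1 FPKM, against 29.1 and 16 FPKM. The ADAM sheddases rose in 5 of 9 genes, among them Adam8 of myeloid cells at 47.6 and 17.4 FPKM, against 12.4 and 8.94 FPKM. Of the 5 tested ADAMTS-like proteins, which lack the proteinase domain, 1 rose and 2 fell, and of 4 tested tolloid proteinases and enhancers, which trim the other end of procollagens, Bmp1 and Pcolce fell. On days 1 and 2 none of these lists held a gene called by limma. On day 3 the one call was Spp1, which rose by 2.05 ± 0.36 (limma, adjusted p = 0.0311), with 104 and 83.4 FPKM, against 29.1 and 16 FPKM in vehicle. On day 6 the calls were 3 substrates, Serpine2 and Adam19, all higher.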

How the data were processed

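Polyadenylated RNA of E0771 tumors was sequenced from stranded libraries, 2 per group. Per the submitters' notes and the study's methods, reads were mapped with TopHat2 to mm9 and counted with featureCounts, and edgeR made the authors' comparisons; their versions, and the strand setting in counting, are "not given in the sources used here". In the deposited table each group has 1 FPKM value a gene, which the authors made as the mean of both libraries, beside the authors' own ratios, fold changes and adjusted p-values, which were not used. There were 0 columns of samples outside the series.

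Because both libraries of a group have different totals, the digits of each mean FPKM fix both whole counts. Counts were recovered in this way for 24172 of 24197 genes (99.9%). In a simulation of 20161 genes, 12 of 12 totals were recovered, and every count was right in 99.978% of split genes with a mean of at least 10 counts and in 94.0% of those below. The recovered gene lengths had a median ratio of 0.989 to annotated exon lengths. Counts summed to between 8.22 and 20.6 (in units of 1000000) per library. Group means were compared as (FPKM + 1) ratios at 2-fold, as planned. The limma test (voom, median-of-ratios scaling, a mean of at least 10 counts, all 6 groups in 1 fit, adjusted p under 0.05) was added after the table was seen, in place of a count test planned for tables with counts. In simulated day 12 data with 200 changed genes, limma called 51.5% of 2-fold and 95.0% of 4-fold changes, and 11 unchanged genes among 12988 tested. The simulation gave every gene and group the same spread. In the data, the median log2 difference between both libraries over all tested genes was 0.40 on day 12 and 0.12 on days 3 and 6. The simulated shares thus need not hold for day 12. Alternatives changed the pseudocount, fold, filter, scaling, model and libraries included.

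Per the study's methods the pools of a condition were independent and each held several tumors, so p-values rest on the spread between pools, not between single tumors. The fit takes that spread, per gene, from all 6 groups together. Over all tested genes, the median log2 difference between libraries was 0.40 on day 12 and 0.12 on days 3 and 6. The standard errors and p-values of day 12 may thus be too small for the spread between its own pools. Members reaching 1 FPKM in any group were named with their levels in all groups; Mmp15, Mmp25, Adamts9, Adamts12 and Adamts20, below that level, were chosen after their values were seen, as was the pick among list genes. Members and gene lists were chosen with earlier results of these data known. Analyses used R 4.3.3, limma 3.58.1, Python 3.11.15, numpy 2.4.6, pandas 2.3.3 and matplotlib 3.10.9.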

Additional observations from a re-analysis of the deposited data

Results flagged for a closer look

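In 7 members every library of a CPA day lay above both vehicle libraries while every library of another CPA day lay below both. That is 20.6% of the 34 tested members, against 33.9% of all tested genes. The values are gaps between the limma log2 differences of the days furthest apart, and the gaps themselves were not tested. For Mmp3 the gap was 5.20 between day 12 (4.71) and day 2 (-0.48), for Timp4 it was 5.80 between day 12 (4.02) and day 1 (-1.78), and for Mmp23 it was 2.72 between day 12 (2.02) and day 3 (-0.69). Adamts7 had a gap of 1.74 between day 2 (0.38) and day 12 (-1.36), and Adamts20 of 1.08 between day 1 (0.18) and day 12 (-0.89). Adamts13 had a gap of 1.09 between day 3 (0.31) and day 6 (-0.78), and Timp2 of 0.47 between day 2 (0.18) and day 6 (-0.29). Among these differences from vehicle, limma called those of Mmp3, Timp4, Mmp23, Adamts7 and Adamts20 on day 12, and none on the opposite day. Timp4 had at most 0.0793 FPKM in any library before day 12.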

How the results depend on the processing

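No paired analysis was possible because the recovered libraries carry no pool number. With groups of 2 libraries and a recovery of 51.5% of 2-fold changes in a simulation with the same spread in every group, members that were not called may still differ. Counts past 2-fold depended on the pseudocount. At 0.01 FPKM, day 1 had 1 member higher and 1 lower, day 2 had 1 and 1, day 3 had 2 higher, day 6 had 9 higher, and day 12 had 25 higher and 4 lower; at 0.1 FPKM, 1, 2 and 7 were higher on days 2, 3 and 6. At 0.01 FPKM the shares of all genes past 2-fold were 3.87% up and 2.56% down on day 1, 4.57% up and 3.43% down on day 2, 6.04% up on day 3, 12.2% up on day 6, and 24.9% up and 7.55% down on day 12. Over 46 members, the counts of days 1 to 3 at that pseudocount were below these shares. At 0.1 FPKM the shares up were 1.05% on day 2, 1.38% on day 3 and 5.33% on day 6. At 1.5-fold, 1, 3 and 6 were higher on days 2, 3 and 6, against 0.847%, 1.32% and 4.21% of all genes. At that fold 1 was lower on day 6, against 0.599%, and 4 on day 12, against 9.87%. At 3-fold, 0 were higher on day 3, against 0.0413%, and 7 on day 12, against 2.81%, and 0 were lower on day 12, against 0.207%. Among the 19 members with a mean of at least 1 FPKM, 8 were past 2-fold higher on day 12, against 9.85% of all genes at that level. Recentring on the median gene, at -0.22 on day 12, left 0 lower, against 0.872% of all genes. Leaving out 1 library at a time gave 0 to 2, 1 to 3, 1 to 3 and 10 to 16 members past 2-fold higher on days 2, 3, 6 and 12, and 1 to 3 lower on day 12. With limma it gave 0 to 1, 0 to 1, 0 to 7 and 12 to 20 called higher on these days, and 0 to 1, 1 to 2 and 4 to 6 called lower on days 3, 6 and 12. A minimum mean of 50 counts added 1 lower on day 3. Of the log2 ratios of named members, 281 moved by less than the spread between libraries under the alternatives and 109 by more, and 0 reversed. Of the limma values of called members, 403 kept their call, 56 lost it and 0 reversed.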
